A study of Danio rerio with 12 samples.

Results

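The genes described here are 10 zebrafish genes of the endoplasmic reticulum (ER) stress response and the integrated stress response, atf4a, atf4b, ddit3, asns, chac1, trib3, xbp1, atf6, hspa5 and hsp90b1. They were chosen by symbol, as known members of either response, from the 32105 genes of a table. For each library it holds a count and an FPKM value (fragments per kilobase of exon and mapped fragments, a level per length of transcript). All 10 were found, and all 10 passed the filter on low counts that left 15602 genes for testing. RNA came from injured ventricles of AB strain zebrafish aged 5 months, collected 7 days post amputation (dpa) of the ventricle apex. WT sibling fish were compared with grl5nt-/- fish, which carry on both alleles a short CRISPR/Cas9 deletion in the first exon of grl, the gene for a Hairy-related transcriptional repressor that is listed as hey2 in the table. Neither group carried a transgene or received a drug. Each group had 3 libraries, each of 6 pooled ventricles, so the spread between libraries is a spread between pools, and all cell types of the ventricle are mixed in each of them. Uninjured hearts are not analysed here, so the comparison is between genotypes and not between injured and intact hearts. The 6 other samples of the series come from a grl overexpression experiment with controls of its own and are left aside.

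Secreted and membrane proteins fold in the ER. When unfolded proteins accumulate there, the sensors Atf6, Ern1 (Ire1) and Eif2ak3 (Perk) start a transcriptional response that increases chaperones, folding enzymes and the degradation of misfolded proteins. Eif2ak3 shares its substrate, the translation factor eIF2, with kinases that sense amino acid shortage, heme shortage and double-stranded RNA, and this common branch is called the integrated stress response. Phosphorylated eIF2 lowers most protein synthesis while favouring translation of Atf4, whose target genes serve amino acid synthesis and uptake and, when stress lasts, cell death. Most of this is known from mammalian cells. Much of the regulation takes place on protein or on splicing, for Atf4 through its translation, for Atf6 through its cleavage and for xbp1 through removal of a short intron by Ern1, and none of these steps is measured by counts per gene.

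In the injured ventricles none of the 10 genes passed an adjusted p of 0.05 between the genotypes (adjusted p from 0.438 to 0.788, edgeR's quasi-likelihood test, two-sided, Benjamini-Hochberg adjustment over all genes tested), compared with 12 of all genes tested (0.0769%). DESeq2 called 0 of the 10 as well, and so did limma on FPKM. At an unadjusted p below 0.05 there was 1 gene of the 10, asns, which was lower in grl5nt-/-; over all genes tested 10.6% had such a p, 6.35% lower and 4.22% higher in the mutant. asns was also the 1 gene of the 10 whose WT and mutant libraries did not overlap in normalized counts, against 15.6% of all genes tested. In FPKM its groups overlapped. Of the 10, 7 had a higher and 3 a lower estimate in the mutant, with a median log2 fold change of 0.23. Over all genes tested, 7314 of 15602 had a higher estimate, and the median was -0.046. In pooled whole ventricles, fewer cells of a type and less RNA per cell cannot be told apart.

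The libraries held between 12520034 and 15006574 counts, and 3 counts, taken as the limit of detection, equal 0.155 to 0.293 CPM (the count scaled to the library total times its TMM factor, which allows for a few abundant genes taking many reads). Reads of mt-co1, a mitochondrial gene, set the libraries apart: WT replicates 1 and 2 and mutant replicate 1 had 0 counts, and WT replicate 3 and mutant replicates 2 and 3 had 583890 to 739939. This split was seen in the data, is not given as a batch in the labels and is unevenly spread over the genotypes. The libraries without mt-co1 reads also differed among themselves by genotype: in WT replicate 1, WT replicate 2 and mutant replicate 1, the count of mt-atp6 was 152528, 137563 and 0, and that of mt-co3 was 0, 1 and 305565. Within that side, genotype and the difference that these mitochondrial reads mark cannot be told apart. The leading principal component (60.8% of the variance over all genes tested) separated the libraries with mt-co1 reads from those without, and within each side its values for WT lay below those for the mutant, so this share is not that of the split alone. The groups' levels of grl itself do not check the labels, since a short deletion need not lower the transcript: hey2 had 11.3 ± 1.76 CPM in WT and 17.6 ± 1.78 CPM in mutant libraries (SD, n = 3 each; log2 fold change 0.64, SE 0.22, edgeR adjusted p = 0.405). Defining transcripts of heart muscle were abundant in every library, with a summed level of 6 cardiomyocyte genes of 26970 to 39830 CPM in WT and 27660 to 45420 CPM in mutant libraries. This sum was 26970 to 27660 CPM in the libraries without and 39260 to 45420 CPM in those with mt-co1 reads.

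Per length of transcript, the 10 genes spanned more than 2 orders of magnitude. The mean over the 6 libraries was highest for chac1 (338 FPKM, from 192 to 463) and atf4a (286 FPKM, from 219 to 333), whose ranges overlapped. It was followed by atf4b at 132 FPKM (113 to 147), a range apart from those of its neighbours. hspa5 (83.5 FPKM, 73.8 to 98.5), xbp1 (77.7 FPKM, 58.7 to 93.4), hsp90b1 (54.8 FPKM, 43.2 to 78.5) and trib3 (49.6 FPKM, 38.3 to 72.4) each overlapped with the next gene in the order. All 7 stood at a percentile of 93.8 or higher among the mean FPKM of all genes tested, whose median was 3.33. The last 3 genes, ddit3 (7.82 FPKM, 2.40 to 15.6), atf6 (4.82 FPKM, 2.90 to 7.87) and asns (2.13 FPKM, 0.954 to 3.97), lay below trib3 without overlap with it and overlapped among themselves.

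**Figure D1:**
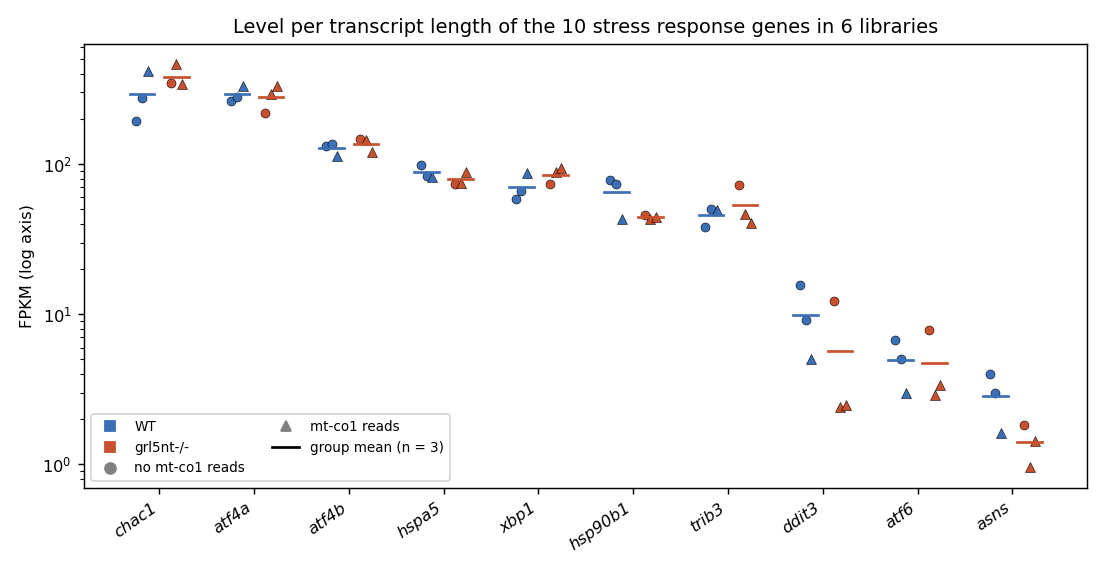
Level per transcript length (FPKM, log axis) of the 10 genes in the 3 WT (blue) and 3 grl5nt-/- (red) libraries, ordered by the mean over 6 libraries. Circles are libraries without and triangles libraries with mt-co1 reads, and lines are group means (n = 3). The genes run from chac1 at 338 FPKM to asns at 2.13 FPKM, the red and blue points of most genes lie side by side, and the points of ddit3 are the most spread, from 2.40 to 15.6 FPKM.

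atf4a and atf4b encode the Atf4 transcription factors, the effectors of the integrated stress response; zebrafish keep both copies of a gene that is single in mammals. atf4a (ENSDARG00000039515, GRCz10 chromosome 6 from 251017 to 254425) had 298, 339 and 571 CPM in WT replicates 1, 2 and 3 and 288, 545 and 597 CPM in mutant replicates 1, 2 and 3. The groups overlapped over nearly their whole range, and the libraries with mt-co1 reads were the high ones in both genotypes (log2 fold change 0.24, SE 0.37, edgeR adjusted p = 0.769). atf4b (ENSDARG00000038141, chromosome 3 from 24067386 to 24070271) had 203, 223 and 264 CPM in WT and 263, 363 and 289.8 CPM in mutant libraries. Mutant replicates 2 and 3 lay above all WT libraries and mutant replicate 1 just below the highest of them, a log2 fold change of 0.41 (SE 0.24, edgeR adjusted p = 0.546; exact permutation p = 0.2, two-sided). Here and for the other genes the smallest p that an exact permutation test of 3 against 3 libraries can give is 0.1. In FPKM, atf4a made up 66.5%, 67.2% and 74.6% of the sum of both genes in WT and 59.8%, 67.0% and 73.6% in mutant libraries. atf4a was thus the more abundant copy in each library, and its share was highest in WT replicate 3 and mutant replicate 3.

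ddit3 encodes Chop, a transcription factor that Atf4 induces and that is known in mammals for promoting cell death under lasting ER stress. ddit3 (ENSDARG00000059836, chromosome 6 from 58921658 to 58924855) had 16.8, 10.5 and 8.23 CPM in WT and 15.3, 4.24 and 4.20 CPM in mutant libraries, from 43 to 325 counts. Mutant replicates 2 and 3 were the lowest of the 6 libraries, while mutant replicate 1 was close to the highest WT library. The log2 fold change was -0.57 with an SE of 0.53 (edgeR adjusted p = 0.643). With a library left out it lay between -1.46 and -0.22. The value of -1.46 (edgeR adjusted p = 0.120) was that without mutant replicate 1. Every mutant library left in that fit had mt-co1 reads, so genotype is there more mixed with the split. ddit3 was the most variable of the 10, with a 4.01-fold range over the 6 libraries. ddit3 overlaps fam210b in the table (740 counts over all libraries, against 922 for ddit3), and the sources used here do not state whether counting used the strand, so shared reads are possible.

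trib3 encodes a pseudokinase that is known in mammals to be induced by Atf4 and Chop and to restrain their activity. trib3 (ENSDARG00000016200, chromosome 11 from 23820673 to 23825339) had 64.9, 90.8 and 126 CPM in WT and 142, 128 and 109 CPM in mutant libraries. Mutant replicates 1 and 2 lay above all WT libraries and mutant replicate 3 below WT replicate 3 (log2 fold change 0.43, SE 0.28, edgeR adjusted p = 0.560; exact permutation p = 0.2). chac1 encodes an enzyme that degrades glutathione and is a target of the Atf4 branch. chac1 (ENSDARG00000070426, chromosome 20 from 28367802 to 28370372) had 354, 538 and 1157 CPM in WT and 738, 1395 and 983 CPM in mutant libraries. WT replicate 3 stood far above the other WT libraries and within the mutant range. The log2 fold change was 0.61 (SE 0.46, edgeR adjusted p = 0.597, exact permutation p = 0.3). WT replicate 3 lowered this estimate, which was 1.23 (edgeR adjusted p = 0.152) without that library. No WT library with mt-co1 reads was left in that fit, so genotype is there more mixed with the split. The lowest estimate with a library left out was 0.30, without WT replicate 1.

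asns encodes asparagine synthetase, a classic Atf4 target of the amino acid response. asns (ENSDARG00000016375, chromosome 19 from 26070140 to 26093779) had 17.8, 14.3 and 11.0 CPM in WT and 9.50, 7.00 and 10.1 CPM in mutant libraries. The lowest WT library, replicate 3, lay just above the highest mutant library, also replicate 3, so the groups did not overlap, by a margin smaller than the spread within either group. In FPKM the groups did overlap, with 3.97, 2.99 and 1.61 in WT and 1.825, 0.954 and 1.42 in mutant libraries. On that scale the libraries without mt-co1 reads all lay above those with them. The means were 14.4 ± 3.42 CPM in WT and 8.85 ± 1.63 CPM in the mutant (SD, n = 3 each), 1.62-fold higher in WT (log2 fold change -0.70, SE 0.27, p = 0.0314, edgeR adjusted p = 0.438; exact permutation p = 0.1). The counts behind these values were 140 to 344 in WT and 81 to 139 in mutant libraries. The unadjusted p was no longer below 0.05 without WT replicate 1, WT replicate 2 or mutant replicate 2, nor with limma on FPKM. Its estimate was lower in the mutant, while those of the Atf4 targets trib3 and chac1 were higher. chac1 in FPKM was 48.4, 91.8 and 257 times asns in WT and 189, 485 and 238 times asns in mutant libraries, and these ratios overlapped between the genotypes.

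**Figure D2:**
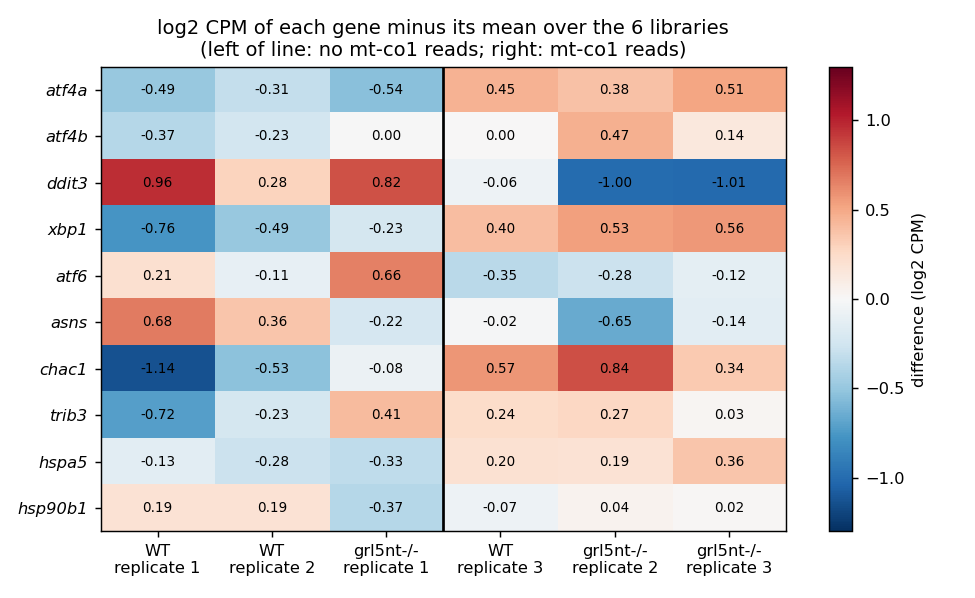
log2 CPM of each gene (rows) in each library (columns) minus the gene's mean over the 6 libraries, with the value in each cell. The black line separates libraries without mt-co1 reads (left) from those with them (right): atf4a, atf4b, xbp1, chac1 and hspa5 are higher and ddit3 and atf6 lower on the right in every library, and asns alone separates WT from grl5nt-/-.

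xbp1 encodes the transcription factor made active by Ern1, and atf6 encodes a sensor that is itself a transcription factor once cut from the ER membrane. xbp1 (ENSDARG00000035622, chromosome 5 from 15444194 to 15448703) had 208, 249.8 and 464 CPM in WT and 300.1, 509 and 520 CPM in mutant libraries. Mutant replicates 2 and 3 were the highest libraries, and mutant replicate 1 lay between the WT libraries (log2 fold change 0.53, SE 0.37, edgeR adjusted p = 0.575; exact permutation p = 0.2). atf6 (ENSDARG00000012656, chromosome 20 from 33906555 to 34006993) had 23.1, 18.5 and 15.6 CPM in WT and 31.4, 16.3 and 18.3 CPM in mutant libraries. Mutant replicate 1 was the highest library and the other mutant libraries lay within the WT range. The log2 fold change of 0.21 (SE 0.30, edgeR adjusted p = 0.755) turned to -0.12 without mutant replicate 1, which left only mutant libraries with mt-co1 reads. atf6 overlaps rxrgb (519 counts over all libraries, against 1791 for atf6).

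hspa5 encodes BiP, the main Hsp70 chaperone of the ER lumen, and hsp90b1 encodes Grp94, its Hsp90 partner, and both are textbook targets of Atf6. hspa5 (ENSDARG00000103846, chromosome 5 from 2440676 to 2448586) had 179, 161 and 226 CPM in WT and 156, 224 and 253 CPM in mutant libraries. The groups overlapped, and mutant replicate 1 was the lowest of all libraries (log2 fold change 0.16, SE 0.26, edgeR adjusted p = 0.788). hsp90b1 (ENSDARG00000003570, chromosome 4 from 9835549 to 9842920) had 168, 168 and 140.3 CPM in WT and 114, 152 and 149.6 CPM in mutant libraries. In CPM it was the steadiest of the 10, with a 1.48-fold range over the 6 libraries, and mutant replicates 2 and 3 lay within the WT range (log2 fold change -0.20, SE 0.22, edgeR adjusted p = 0.697). In FPKM hsp90b1 ran from 43.2 to 78.5. The ranges of atf4b (113 to 147), hspa5 (73.8 to 98.5), atf4a (219 to 333) and xbp1 (58.7 to 93.4) were narrower for their level. The ratio of hsp90b1 to hspa5 in FPKM was 0.797, 0.882 and 0.528 in WT and 0.621, 0.576 and 0.502 in mutant libraries. WT replicates 1 and 2 had the highest ratios, and WT replicate 3 lay within the mutant range.

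The split of the libraries moved with the levels of most of these genes. In CPM the libraries with and without mt-co1 reads did not overlap for 7 of the 10, compared with 51.3% of all genes tested. Of these, atf4a, atf4b, xbp1, chac1 and hspa5 were higher and ddit3 and atf6 lower where mt-co1 had reads. The TMM factors also differed by side, and a lower factor raises the CPM. They were 1.138 to 1.305 without and 0.788 to 0.851 with mt-co1 reads. In FPKM the sides overlapped for atf4b, hspa5 and chac1, and atf4a, xbp1, ddit3 and atf6 stayed apart. hsp90b1 and asns were then lower with mt-co1 reads, without overlap. For xbp1 and chac1 the mean log2 CPM was 0.99 and 1.17 higher with mt-co1 reads, and for ddit3 it differed by -1.38. Each of these 3 distances was larger than the gene's fitted difference between the genotypes. Since 2 of the 3 mutant libraries and 1 of the 3 WT libraries had mt-co1 reads, both contrasts are partly mixed, and their parts were compared by taking the mutant minus WT difference of mean log2 CPM within each side, with no test (2 WT against 1 mutant library without and 1 WT against 2 mutant libraries with mt-co1 reads). The side without mt-co1 reads carries the further difference in mt-atp6 and mt-co3 given above.

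Within the sides, asns was lower in the mutant in both (-0.74 without and -0.38 with mt-co1 reads), and atf4b was higher in both by 0.30. xbp1 was higher by 0.40 and 0.15, and atf6 by 0.60 and 0.15. For chac1 the difference was 0.76 without mt-co1 reads and 0.018 with them. The sides had opposite signs for ddit3 (0.20 and -0.94), trib3 (0.89 and -0.094), hspa5 (-0.13 and 0.076) and hsp90b1 (-0.56 and 0.10). For atf4a the difference was -0.14 without mt-co1 reads and about 0 (-0.0029) with them, so that its higher estimate over all libraries was seen within neither side. With a term for the split in the edgeR fit, an alternative chosen after the data had been seen, asns and atf6 had an unadjusted p below 0.05, where 18.1% of all genes tested had one, 5 of the 10 genes had a higher estimate, and none passed after adjustment (smallest adjusted p = 0.204, for asns).

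**Figure D3:**
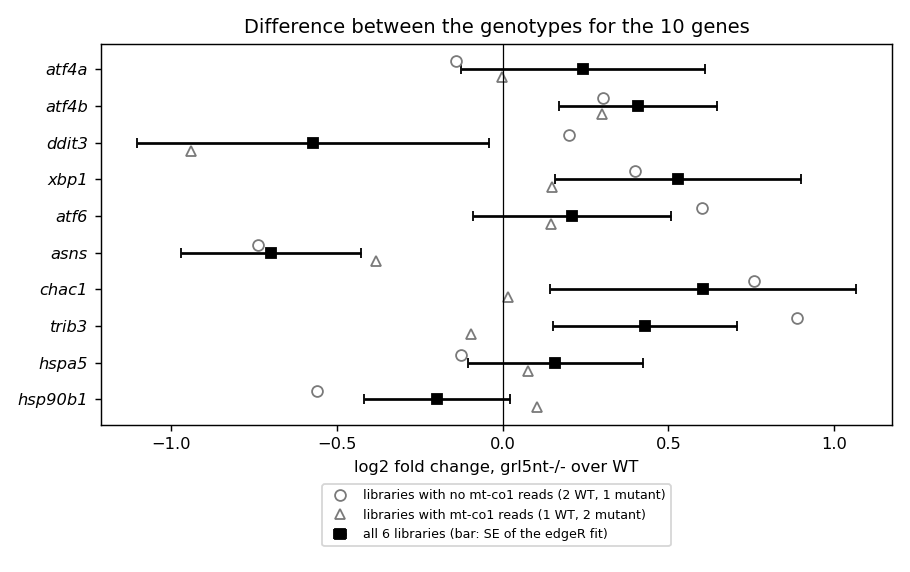
log2 fold change of grl5nt-/- over WT for each gene: squares with bars are the edgeR estimate over 6 libraries and its SE, circles the difference within the 3 libraries without and triangles within the 3 libraries with mt-co1 reads. The bar of asns (-0.70, SE 0.27) lies farthest from 0 relative to its length, and the circles and triangles of ddit3, trib3, hspa5 and hsp90b1 lie on opposite sides of 0.

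The rest of the pathway was read from a list of 81 further genes in 6 roles, of which 76 had a row in the table and 73 were tested. None passed an adjusted p of 0.05 (smallest 0.151, edgeR), and 8 had an unadjusted p below 0.05, 4 higher (atf3, atf5a, mthfd2 and slc7a3a) and 4 lower (cebpb, ern1, stc2a and os9) in the mutant, a share near the 10.6% of all genes tested. DESeq2 called 2 of the 73, cebpb and os9, among 242 of the 15602 genes tested, and limma called cebpb among 5 genes on log2(FPKM + 1) and 12 on log2(FPKM + 0.1). In CPM the groups did not overlap for 12 of the 73 genes, 5 higher and 7 lower, again near the share over all genes tested (15.6%). Of the 73, 40 had a higher and 33 a lower estimate (7314 of 15602 higher over all genes tested), with a median log2 fold change of 0.069. The genes singled out below are at most 3 per role, those with the smallest p.

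**Figure D4:**
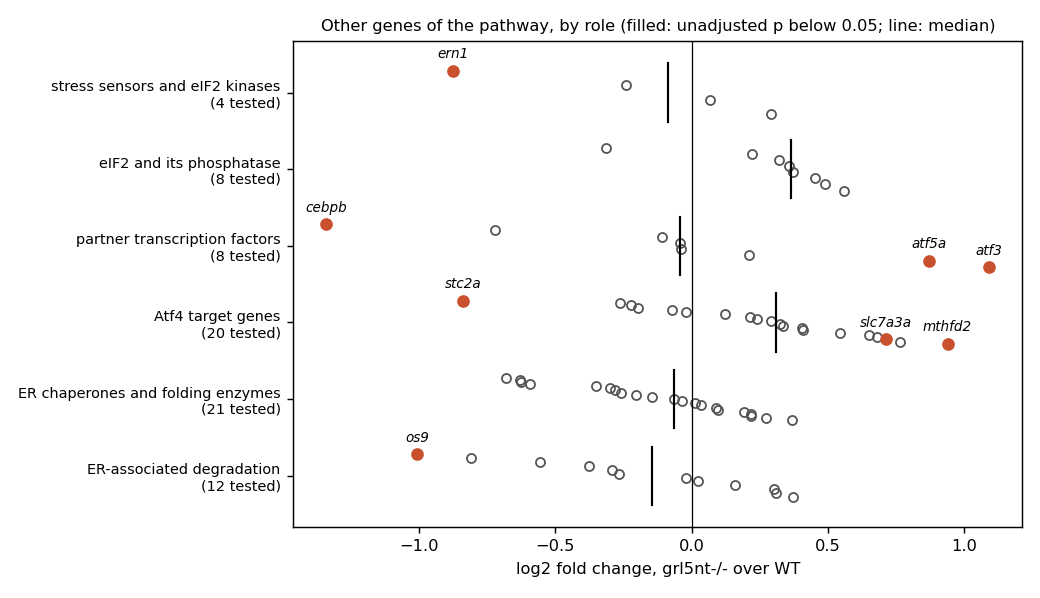
log2 fold change of grl5nt-/- over WT (edgeR) for the 73 further pathway genes tested, 1 circle per gene, in rows by role, with the median of each role as a vertical line. Filled circles are the 8 genes with an unadjusted p below 0.05; the medians lie between -0.14 for ER-associated degradation and 0.36 for eIF2 and its phosphatase.

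Among the 4 sensors and eIF2 kinases tested, the estimate was higher for 2 and lower for 2, with a median of -0.085. ern1, the sensor that splices xbp1 mRNA, had 12.8, 10.3 and 8.93 CPM in WT and 8.48, 3.20 and 5.76 CPM in mutant libraries. All mutant libraries lay below all WT libraries, the nearest by less than the spread within a group (log2 fold change -0.88, SE 0.37, edgeR adjusted p = 0.464). In FPKM the groups of ern1 overlapped, with WT replicate 3 at 1.31 and mutant replicate 1 at 1.62. eif2ak3, the ER-resident eIF2 kinase, differed by -0.24 (SE 0.21) and eif2ak1, the heme-regulated kinase, by 0.29 (SE 0.24). Among 8 genes of eIF2, its exchange factor eIF2B and its phosphatase, 7 had a higher estimate (median 0.36), compared with 7314 of 15602 over all genes tested. None of the 8 had an unadjusted p below 0.05 (10.6% of all genes tested). The smallest p were those of eif2b5 (log2 fold change 0.56, SE 0.29, edgeR adjusted p = 0.519), eif2s1b (0.49, SE 0.29) and eif2b1 (0.45, SE 0.28). In 7 of these 8 genes the libraries with and without mt-co1 reads did not overlap, 6 of them being higher with mt-co1 reads; over all genes tested this held for 8000 of 15602 (51.3%), of which 3766 were higher.

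The transcription factors that act with Atf4 or are induced by it held the lowest p of the pathway. cebpb encodes C/EBPβ, a leucine zipper factor that can pair with Atf4 and Chop and is known for its part in inflammation. cebpb (ENSDARG00000042725, chromosome 8 from 28414259 to 28415774) had 131, 109 and 167 CPM in WT and 44.4, 61.0 and 55.1 CPM in mutant libraries. The lowest WT library was well above the highest mutant library, and the difference was alike within the sides, -1.42 without and -1.52 with mt-co1 reads. The means were 135 ± 29.3 and 53.5 ± 8.45 CPM (SD, n = 3 each), a log2 fold change of -1.34 (SE 0.25, p = 0.000505, edgeR adjusted p = 0.151; exact permutation p = 0.1). The adjusted p was 0.00123 with DESeq2, 0.0157 with limma on log2(FPKM + 1) and 0.00349 with a term for the split, and with edgeR on 5 libraries, leaving out each in turn, it lay between 0.0953 and 0.588, so the call of cebpb depended on the test. Over all alternatives the log2 fold change stayed between -1.63 and -1.15.

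Because cebpb is also a gene of macrophages, their markers are given beside it. The summed level of 6 macrophage genes was 389, 394 and 199 CPM in WT and 275, 182 and 202 CPM in mutant libraries; 1 of the 6 had a higher estimate in the mutant, 3 had an unadjusted p below 0.05 (10.6% of all genes tested) and none passed after adjustment (edgeR). The sum was 275 to 394 CPM in the libraries without mt-co1 reads and 182 to 202 CPM in those with them. WT replicate 3, the library with the most cebpb in CPM (167), is among the latter. In FPKM cebpb was highest in WT replicate 1 (111, against 93.6 in WT replicate 3), a library without mt-co1 reads. Whether macrophage number had a part in the level of cebpb was not tested.

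atf5a encodes a relative of Atf4 with a similar translational control. It had 26.0, 34.3 and 37.9 CPM in WT and 70.0, 57.3 and 52.2 CPM in mutant libraries. All mutant libraries lay above all WT libraries, with a log2 fold change of 0.87 (SE 0.23, p = 0.00464, edgeR adjusted p = 0.305; DESeq2 adjusted p = 0.0509; exact permutation p = 0.1) and within-side differences of 1.23 and 0.53. atf3, an early stress gene, had 33.3, 45.0 and 70.5 CPM in WT and 174, 85.7 and 56.9 CPM in mutant libraries. Mutant replicate 1 stood above the rest, the groups overlapped, and the log2 fold change of 1.09 (SE 0.44, edgeR adjusted p = 0.451) came from a difference of 2.17 without and -0.012 with mt-co1 reads.

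Of 20 Atf4 target genes tested, 14 had a higher and 6 a lower estimate in the mutant, with a median log2 fold change of 0.31. Over all genes tested, 7314 of 15602 had a higher estimate, with a median of -0.046. For 9 of the 20 the libraries with and without mt-co1 reads did not overlap (51.3% of all genes tested). All 9 were higher with mt-co1 reads, as were 3766 of the 8000 such genes among all tested. The median log2 difference of the side with from that without mt-co1 reads was 0.47, and -0.063 over all genes tested. mthfd2, a mitochondrial enzyme of folate metabolism, had 87.8, 119 and 175 CPM in WT and 180.4, 316 and 237 CPM in mutant libraries. The groups did not overlap, the highest WT library lying just under the lowest mutant library (log2 fold change 0.94, SE 0.33, edgeR adjusted p = 0.405), and the within-side differences were 0.82 and 0.64. slc7a3a, a cationic amino acid transporter gene, had 12.4, 15.9 and 17.7 CPM in WT and 24.7, 32.3 and 18.3 CPM in mutant libraries. Here too the groups were apart, by a narrow margin between both replicates 3 (log2 fold change 0.71, SE 0.27, edgeR adjusted p = 0.425). In FPKM the groups of slc7a3a overlapped, as mutant replicate 3 (3.131) lay just below WT replicate 3 (3.157). stc2a, a stanniocalcin gene, had 4.76, 7.40 and 4.39 CPM in WT and 3.14, 2.51 and 3.61 CPM in mutant libraries. Its mutant libraries all lay below its WT libraries (log2 fold change -0.84, SE 0.33, edgeR adjusted p = 0.447). Like asns, stc2a had a lower estimate in the mutant, and like chac1 and trib3, mthfd2 and slc7a3a had higher ones. The estimates of the Atf4 targets named here thus did not all share a sign, while 14 of the 20 listed had a higher one. None of these estimates passed after adjustment (edgeR), so a difference in direction among the targets is not shown.

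**Figure D5:**
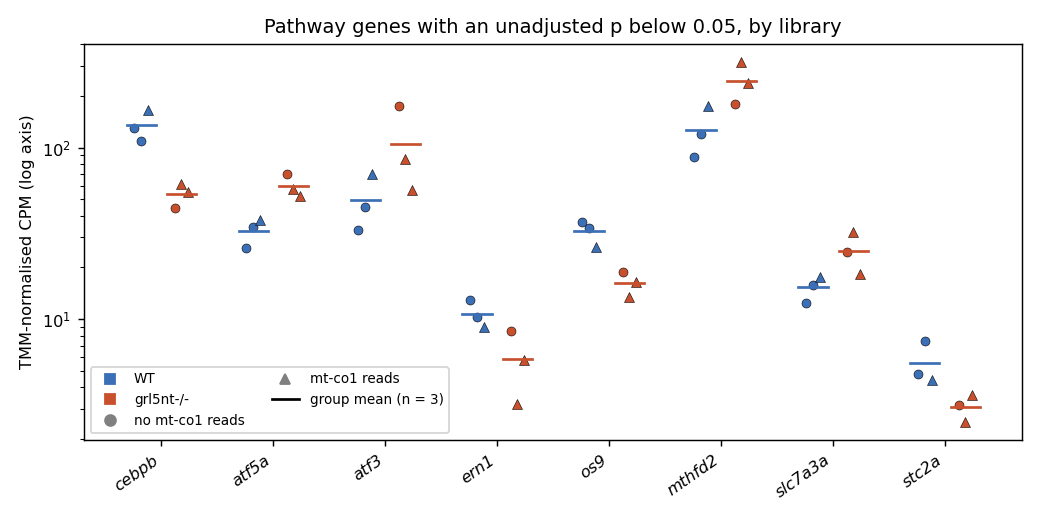
TMM-normalised CPM (log axis) of the 8 further pathway genes with an unadjusted p below 0.05 in WT (blue) and grl5nt-/- (red) libraries, with circles for libraries without and triangles for libraries with mt-co1 reads and lines for group means (n = 3). In CPM the groups are apart for each gene but atf3 (15.6% of all genes tested), among genes picked by their p in these same data. In FPKM those of ern1 and slc7a3a overlap. The gap is widest for cebpb, at 135 CPM in WT and 53.5 CPM in the mutant.

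Of 21 ER chaperones and folding enzymes, the genes nearest in function to hspa5 and hsp90b1, 9 had a higher and 12 a lower estimate (median -0.065). Over all genes tested, 7314 of 15602 had a higher one, with a median of -0.046. None of the 21 had an unadjusted p below 0.05 in edgeR (10.6% of all genes tested). pdia4, a disulfide isomerase gene, differed by -0.63 (SE 0.28, edgeR adjusted p = 0.479), ero1b, which encodes an oxidase that recharges such isomerases, by -0.59 (SE 0.31), and dnajc10, an ER reductase gene, by 0.37 (SE 0.20). The differences without and with mt-co1 reads were -0.79 and -0.045 for pdia4, -0.70 and 0.052 for ero1b, and 0.25 and 0.35 for dnajc10. pdia4 had 42.6, 39.8 and 22.4 CPM in WT and 23.7, 25.2 and 18.8 CPM in mutant libraries. As for hsp90b1, WT replicates 1 and 2 were the highest and WT replicate 3 lay among the mutant libraries. The groups of dnajc10 were apart in CPM, with 15.3, 14.9 and 16.6 CPM in WT and 18.0, 20.2 and 22.2 CPM in mutant libraries. In FPKM they overlapped, at 4.175 to 5.83 in WT and 4.71 to 5.90 in mutant libraries.

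Among 12 genes of ER-associated degradation, by which misfolded proteins are sent to the proteasome, 5 had a higher and 7 a lower estimate (median -0.14). Over all genes tested, 7314 of 15602 had a higher one, with a median of -0.046. os9, which encodes a lectin that recognises misfolded glycoproteins for this route, had 37.1, 34.1 and 26.5 CPM in WT and 18.8, 13.4 and 16.4 CPM in mutant libraries. Every mutant library lay below every WT library, with means of 32.5 ± 5.45 and 16.2 ± 2.70 CPM (SD, n = 3 each) and within-side differences of -0.91 and -0.83. The log2 fold change was -1.01 (SE 0.23, p = 0.0021, edgeR adjusted p = 0.223, exact permutation p = 0.1). The adjusted p was 0.0304 in DESeq2 and 0.0255 in edgeR with a term for the split. It was 0.417 and 0.398 with limma at a pseudocount of 1 and 0.1, and 0.0976 to 0.80 in edgeR with a library left out. Thus os9 too passed or missed the threshold by the test used. vimp, which encodes a selenoprotein of the degradation complex, differed by -0.81 (SE 0.36, edgeR adjusted p = 0.480) and edem1, a mannosidase-like gene, by -0.56 (SE 0.28). The differences without and with mt-co1 reads were -0.27 and -0.97 for vimp and -0.81 and 0.076 for edem1.

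Secretory cells have high ER chaperone levels, so markers of tissues that could adhere to a dissected ventricle were read as well. The summed level of the exocrine pancreas genes found (11 of 12 listed) was 49.9 to 142 CPM in WT and 103 to 311 CPM in mutant libraries, that of 8 liver genes 161 to 249 and 154 to 239 CPM, and that of 3 B and plasma cell genes (of 5 listed) 0.470 to 1.61 and 1.47 to 1.56 CPM. The erythrocyte genes (4 of 5) ranged from 7244 to 33230 CPM in WT and from 18310 to 35750 CPM in mutant libraries. Of these lists, 5 pancreas, 4 liver, 1 B cell and 4 erythrocyte genes had enough counts to be tested, and none of them passed an adjusted p of 0.05 (edgeR). Of the 5 pancreas genes 4 had a higher estimate in the mutant (7314 of 15602 over all genes tested), and 1 had an unadjusted p below 0.05 (10.6% of all genes tested). The summed ranges overlapped between the genotypes for each list. By the mt-co1 split, the erythrocyte sums were 7244 to 18310 CPM without and 27120 to 35750 CPM with mt-co1 reads. The pancreas sums were 49.9 to 103 and 142 to 311 CPM, and those of liver and of B and plasma cells overlapped between the sides. The part of these tissues in the levels of the stress response genes was not tested.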

How the data were processed

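RNA of 3 WT and 3 grl5nt-/- libraries was analysed. The authors filtered reads with Seqtk and mapped them to GRCz10 with Hisat2 (2.0.4). The deposited counts are whole numbers per gene without normalization; the counting program and strand setting are not given in the sources used here. The FPKM were computed by the authors with Stringtie (1.3.0). FPKM served for levels between genes, for filters and for the limma alternatives, and counts for all other values.

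TMM factors normalized the counts, which edgeR 4.0.16 tested (quasi-likelihood test, filterByExpr, two-sided, Benjamini-Hochberg over 15602 genes) in R 4.3.3. The SE given with an edgeR estimate is the absolute log2 fold change divided by the square root of the test's F statistic. Log2 CPM used a prior count of 2. As alternatives served limma 3.58.1 on log2(FPKM + 1) and log2(FPKM + 0.1), DESeq2 1.42.0, edgeR with the size factors of DESeq2, every gene with a count or every gene with a mean FPKM of 1 or more, an adjusted p below 0.1, a block for the replicate number, fits without 1 library, and a term for the mt-co1 split, added later. The genes, lists and tests were chosen with earlier results of these data known. Named in the text are the 10 genes, hey2, the mitochondrial genes of the split and at most 3 genes per role, those with the smallest p. Of 81 listed pathway genes, eif2ak4, atf6b, nupr1b, wars and sil1 found no row, and ppp1r15b, slc7a11 and fgf21 were below the filter. Scripts were tested on simulated counts. Limits of detection cover counting error only. Promoter and protein sequences are not analysed here.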

Additional observations from a re-analysis of the deposited data

How the results depend on the processing

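None of the 10 genes passed an adjusted p of 0.05 under any of the 15 alternatives tried, whereas the count over all genes varied widely: 12 became 242 with DESeq2, 39 with no filter on low counts, 5 with limma on log2(FPKM + 1), 4 among genes with a mean FPKM of 1 or more, 23 at an adjusted p below 0.1, 241 with a term for the mt-co1 split (chosen after seeing the data) and 3 to 30 with a library left out. The 1 gene of the 10 at an unadjusted p below 0.05 became 0 with limma on log2(FPKM + 1) and 0 with limma on log2(FPKM + 0.1), 2 with the term for the split (18.1% of all genes tested), and 0 to 4 with a library left out: it was 4 without WT replicate 3 (asns, trib3, chac1 and xbp1), where 22.2% of all genes tested had such a p, and 2 without mutant replicate 1 (asns and ddit3), where 26.0% had one. Of the 73 further genes, 0 at an adjusted p of 0.05 became 2 with DESeq2, 1 with either limma fit and 2 with the term for the split, and stayed 0 with a library left out; 8 at an unadjusted p below 0.05 became 14 with the term for the split and 3 to 23 with a library left out, with 23 if WT replicate 3 was left out and 15 if mutant replicate 1 was (74 tested in either), against the same 22.2% and 26.0% of all genes.

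The labels number the replicates and state no pairing between the genotypes. The deviations of same-numbered libraries from their group means correlated across genes with r of 0.593, -0.338 and 0.385 for numbers 1, 2 and 3. WT replicate 2 correlated best with mutant replicate 1 (0.428). Libraries numbered 1 and those numbered 3 shared a side of the mt-co1 split, and those numbered 2 did not. These correlations therefore cannot settle whether a shared number marks shared handling. With the number as a block, 132 genes were called, none of the 10 and 1 of the 73 (cebpb, adjusted p = 0.0326), and 4 of the 10 and 15 of the 73 had an unadjusted p below 0.05, as did 18.2% of all genes tested.

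On the FPKM scale the median over all genes tested shifted to -0.21 with a pseudocount of 1 and to -0.33 with 0.1. The median of the 10 genes, 0.23 on counts (0.17 to 0.43 with a library left out), was then -0.082 and -0.096, above that shift, and 4 of the 10 had a higher estimate. The median of the 73, 0.069 (0.041 to 0.21 with a library left out), became -0.21 with a pseudocount of 0.1. With either limma fit 22 of the 73 had a higher estimate, compared with 40 in the main fit on counts. Signs turned for atf4a (-0.063 and -0.064 with limma at a pseudocount of 1 and 0.1, -0.072 with the term for the split), hspa5 (-0.15 with either limma fit, -0.024 with the term) and atf6 (-0.10 and -0.13 with limma at a pseudocount of 1 and 0.1, -0.12 without mutant replicate 1, the lowest of -0.12 to 0.39 with a library left out). There were 3 pooled libraries per group, and a p that missed the threshold does not show that the levels were alike.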
